A study of Mus musculus with 4 samples.

Results

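The proteasome genes described here were the rows of the deposited mouse gene table whose whole symbol is Psma to Psmg followed by a number and at most 1 further letter, 49 of 18560 genes. They were measured by RNA-seq in activated CD4+ T cells with and without Setd2, the methyltransferase that trimethylates lysine 36 of histone H3. The KO group, labelled Setd2-CD4 cre, held 2 libraries (numbered 9 and 12), and the wild type (WT) group held 2 libraries (numbered 1 and 6). That label is read here as deletion by a Cre recombinase under control of Cd4, which acts from the stage at which developing T cells first express that gene. All 4 libraries came from spleen CD4+ T cells of C57BL/6 mice, started as naive cells and stimulated through CD3 and CD28 to give Th0 cells, which are activated but not steered to an effector type. The sample titles carry the number 48, the design text gives 2 days of stimulation and the treatment label 3 days, and the labels used here give no age. Nothing in them says whether libraries of a group came from separate mice, so each p-value reflects the spread among these libraries alone, which may be technical.

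The proteasome is the large protease that degrades proteins tagged with ubiquitin. Its barrel, the 20S core particle, is built of rings of alpha subunits (Psma genes), which gate the entry, and rings of beta subunits (Psmb genes), of which Psmb5, Psmb6 and Psmb7 carry the cutting sites. The 19S regulatory particle (Psmc and most Psmd genes) binds, unfolds and feeds in the tagged protein. Under interferon, and constantly in many lymphocytes, the catalytic subunits Psmb8, Psmb9 and Psmb10 replace Psmb5, Psmb6 and Psmb7 during assembly, which gives the immunoproteasome. Psme1 and Psme2 form PA28, an alternative cap for the barrel, and the peptides made by the immunoproteasome are loaded on MHC class I. When proteasome activity falls short, the transcription factor encoded by Nfe2l1 is known to bind antioxidant response elements in proteasome promoters.

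The genes were compared as 4 classes. The core particle held 15 genes (Psma1 to Psma8 and Psmb1 to Psmb7), the immunoproteasome class 5 (Psmb8, Psmb9, Psmb10, Psme1 and Psme2) and the regulatory particle 20 (Psmc1 to Psmc6 and Psmd1 to Psmd14). The remaining 9 were Psmb11, Psme2b, Psme3, Psme4, Psmf1 and the assembly chaperones Psmg1 to Psmg4. Of the 49 genes 48 passed the filter on low counts and were tested among 12816 genes. The exception was Psma8, an alpha subunit known from testis, with 2 and 4 counts in the KO libraries against 0 and 0 in the WT libraries, which is at about the limit of 3 counts for a gene not seen.

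Total counts lay between 17284613 and 20418766 per library. The 2 libraries least alike in their counts were KO replicate 12 and WT replicate 6. Their chi-square per degree of freedom was 161.5 over the tested genes. The 2 most alike were KO replicate 9 and WT replicate 1, with 29.7, so the closest pair was not of one genotype. The pairs of one genotype came next, at 45.0 for the WT libraries and 51.6 for the KO libraries. The other pairs across genotypes were further apart, from 70.4 upward. Levels are given as CPM, the count scaled to library size with TMM factors. Setd2 itself stood at 127 and 113 CPM in the KO libraries against 157 and 174 CPM in the WT libraries, a value over the whole gene that does not check the deletion of a part of it. The T cell genes Cd3e, Cd3d and Cd4 summed to 848 and 895 CPM in KO against 1009 and 1191 CPM in WT libraries. In such bulk samples fewer cells of a type and less RNA per cell cannot be told apart. The B cell markers Cd79a, Cd79b and Ms4a1 summed to 102.0 and 184 CPM in KO replicates 9 and 12 against 129.5 and 79.4 CPM in WT replicates 1 and 6, with none at 0. Their extremes were thus the libraries that were the extremes for most proteasome genes (below), and the part of B cells in those results was not tested. Markers of NK cells, of myeloid and dendritic cells and of red cells summed to between 2.15 and 19.8 CPM in each library, and the CD8 genes Cd8a and Cd8b1 to 432 and 323 CPM in KO against 260 and 330 CPM in WT libraries.

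Promoter sequences were read first for what the members share apart from their names. RefSeq windows of 300 bases (250 before to 50 after a transcript start, GRCm38.p6) were found for 41 of the 49 genes, 44 windows in all; Psma8, Psmb1, Psmb2, Psmb7, Psmc3, Psmd3, Psmd7 and Psmg2 had none. They were searched on both strands for 5 short motifs, and a match describes letters, not a bound site. The 6 windows printed here are those of the constitutive catalytic subunits Psmb5 and Psmb6 and of the lid subunit Psmd12, which hold an antioxidant response element core (TGACNNNGC), and of the interferon-inducible genes Psmb8, Psmb9 and Psme1. Capitals mark the matches, which did not overlap each other.
Psmb5, chr14:54617946-54618245, minus strand: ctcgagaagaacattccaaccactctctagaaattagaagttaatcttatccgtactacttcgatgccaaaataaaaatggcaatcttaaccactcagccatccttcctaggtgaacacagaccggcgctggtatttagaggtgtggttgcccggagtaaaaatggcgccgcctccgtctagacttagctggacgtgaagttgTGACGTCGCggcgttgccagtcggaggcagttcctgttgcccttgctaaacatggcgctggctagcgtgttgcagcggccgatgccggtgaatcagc
Psmb6, chr11:70525107-70525406, plus strand: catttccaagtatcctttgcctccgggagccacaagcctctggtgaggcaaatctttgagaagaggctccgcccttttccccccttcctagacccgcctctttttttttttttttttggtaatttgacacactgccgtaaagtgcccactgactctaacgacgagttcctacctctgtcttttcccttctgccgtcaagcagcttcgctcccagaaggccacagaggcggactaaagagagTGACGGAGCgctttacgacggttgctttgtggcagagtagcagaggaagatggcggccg
Psmd12, chr11:107479278-107479577, plus strand: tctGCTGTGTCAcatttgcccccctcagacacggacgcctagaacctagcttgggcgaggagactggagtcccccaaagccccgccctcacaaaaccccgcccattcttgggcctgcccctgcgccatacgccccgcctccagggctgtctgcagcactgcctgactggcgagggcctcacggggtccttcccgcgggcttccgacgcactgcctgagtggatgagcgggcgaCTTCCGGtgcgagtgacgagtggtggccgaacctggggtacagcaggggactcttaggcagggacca
Psmb8, chr17:34197945-34198244, plus strand: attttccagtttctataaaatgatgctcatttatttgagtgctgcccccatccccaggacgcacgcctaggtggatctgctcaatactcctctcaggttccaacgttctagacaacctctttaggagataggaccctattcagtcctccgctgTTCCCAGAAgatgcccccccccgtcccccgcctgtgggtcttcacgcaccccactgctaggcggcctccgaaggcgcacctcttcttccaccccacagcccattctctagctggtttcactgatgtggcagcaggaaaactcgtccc
Psmb9, chr17:34187281-34187580, minus strand: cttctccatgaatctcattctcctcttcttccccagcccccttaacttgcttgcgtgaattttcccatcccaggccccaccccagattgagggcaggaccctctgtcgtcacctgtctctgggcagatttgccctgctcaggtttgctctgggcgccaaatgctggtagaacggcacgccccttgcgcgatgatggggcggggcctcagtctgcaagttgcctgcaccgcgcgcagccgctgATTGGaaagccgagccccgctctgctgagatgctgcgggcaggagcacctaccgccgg
Psme1, chr14:55578244-55578543, plus strand: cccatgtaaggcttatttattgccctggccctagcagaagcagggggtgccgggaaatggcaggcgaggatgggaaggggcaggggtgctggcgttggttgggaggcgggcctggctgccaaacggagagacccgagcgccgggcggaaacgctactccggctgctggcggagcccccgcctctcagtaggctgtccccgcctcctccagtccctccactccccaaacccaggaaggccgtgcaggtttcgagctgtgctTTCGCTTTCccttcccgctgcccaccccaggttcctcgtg

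The antioxidant response element core TGACNNNGC stood in 6 of the 44 windows (13.6%), those of Psmb5, Psmb6, Psmc6, Psmd9, Psmd12 and Psme4, against 12.4% of all 32851 windows and 14.3% of the 13076 windows of tested genes. An ETS site (CCGGAAG, bound by ETS family factors) stood in 15 windows (34.1%), against 8.86% of all windows and 17.1% of those of tested genes. Its holders in the regulatory particle were Psmc1, Psmc2, Psmc6, Psmd2, Psmd4, Psmd6, Psmd11, Psmd12 and Psmd13. The other holders were Psma6, Psme3, Psme4, Psmg1 and Psmg3. None of the 5 immunoproteasome genes held it, nor did any other Psmb gene with a window. The GAS element TTCNNNGAA, which STAT factors bind, stood in 3 windows (6.82%, against 6.98% in tested genes), those of Psmb8, Psmd2 and Psmg1. The ISRE core GAAANNGAA, known from interferon-stimulated genes, stood in 7 windows (15.9%, against 7.25% in tested genes), with Psme1 the 1 holder in the immunoproteasome class. The CCAAT box stood in 14 windows (31.8%, against 38.0% in tested genes), with Psmb9 among them. Psmb9 and the peptide transporter gene Tap1 lie on chromosome 17 with 225 bases between them, so the Psmb9 window above reaches into Tap1.

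No proteasome gene passed the test for a difference between KO and WT cells, yet 44 of the 48 tested had a higher estimate in KO, with a median log2 fold change (KO over WT) of 0.54. Over all 12816 tested genes the median was -0.0024 and 49.8% of genes had a positive value. edgeR called 0 of the 48 at an adjusted p under 0.05, where the background over all genes was 0.0078% (1 gene) called higher and 0% called lower. DESeq2 also called 0 of the 48, against 0.687% of all genes higher and 0.757% lower. At an unadjusted p under 0.05 edgeR had 9 of the 48 (18.8%) higher and 0 lower, against 6.23% and 5.73% of all genes, and DESeq2 had 15 (31.2%) higher and 0 lower, against 6.59% and 6.48% of all genes. The 9 were the beta subunits Psmb3, Psmb5, Psmb6 and Psmb7, the lid subunits Psmd6, Psmd7, Psmd8 and Psmd13 and the assembly chaperone Psmg1. Both KO libraries lay above both WT libraries for 30 genes (62.5%, against 25.4% of all genes) and below them for 1 (2.08%, against 24.3%), which was Psme2b.

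The 4 libraries stood in nearly the same order for most members. WT replicate 6 was the lowest and KO replicate 12 the highest library for 42 of the 48 genes (87.5%), among them all 14 tested core genes and all 20 regulatory genes, against 23.0% of all genes. KO replicate 9 and WT replicate 1 lay between them and close to each other. Relative to each gene's own mean over the 4 libraries, the median log2 level of the core genes was 0.03 in KO replicate 9 and 0.58 in KO replicate 12, against 0.01 in WT replicate 1 and -0.57 in WT replicate 6. For the regulatory genes the values were 0.03 and 0.55 in KO against -0.03 and -0.56 in WT libraries, which is the same picture. KO replicate 9 was above WT replicate 1 for 9 of 14 core genes, 17 of 20 regulatory genes and 1 of 5 immunoproteasome genes, against 50.1% of all genes. The median of the 48 was accordingly 0.27 without KO replicate 12 and 0.29 without WT replicate 6, and 0 genes were then higher at an unadjusted p under 0.05, against 2.15% and 2.68% of all genes in those fits. Without KO replicate 9 the median was 0.74 and 29 genes passed that limit as higher, against 8.08% of all genes. Without WT replicate 1 it was 0.84 with 26 genes, against 9.14% of all genes. Each of these fits leaves a group with 1 library, which is assumed to vary as the other group does.

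**Figure D1:**
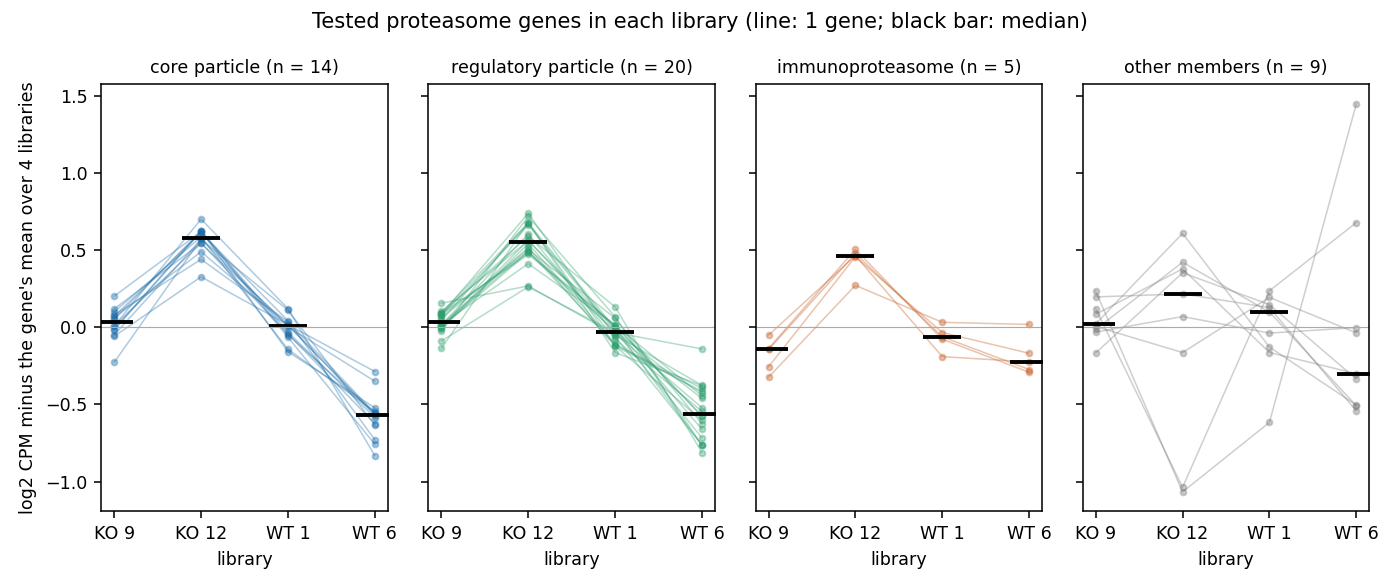
Each line is 1 tested proteasome gene, plotted as log2 CPM minus its own mean over the 4 libraries (y axis) in KO replicates 9 and 12 and WT replicates 1 and 6 (x axis), with the class median as a black bar. Core and regulatory genes peak in KO 12 and are lowest in WT 6, while the 5 immunoproteasome genes peak in KO 12 and differ less between the other 3 libraries.

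Gene length moved with the fold change. Proteasome genes are short, with a median effective length (the length implied by the deposited values) of 1281 bases, from 512 (Psmg4) to 6521 (Psme4). Among all tested genes the median log2 fold change was 0.38 below 1000 bases, 0.22 from 1000 to 2000, 0.0017 from 2000 to 4000 and -0.27 above. The proteasome genes in the first 3 of these length classes had medians of 0.50 (14 genes), 0.58 (24 genes) and 0.54 (8 genes), each higher than that of all genes in the class, while the 2 above 4000 bases (Psme4 and Psmb11) had a median of -0.60. With a trend on length taken out of each library, the median of the 48 was 0.33, 0 were higher at an unadjusted p under 0.05 (4.92% of all genes were), and both KO libraries lay above both WT libraries for 18 genes (37.5%, against 20.8% of all genes under the same correction).

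**Figure D2:**
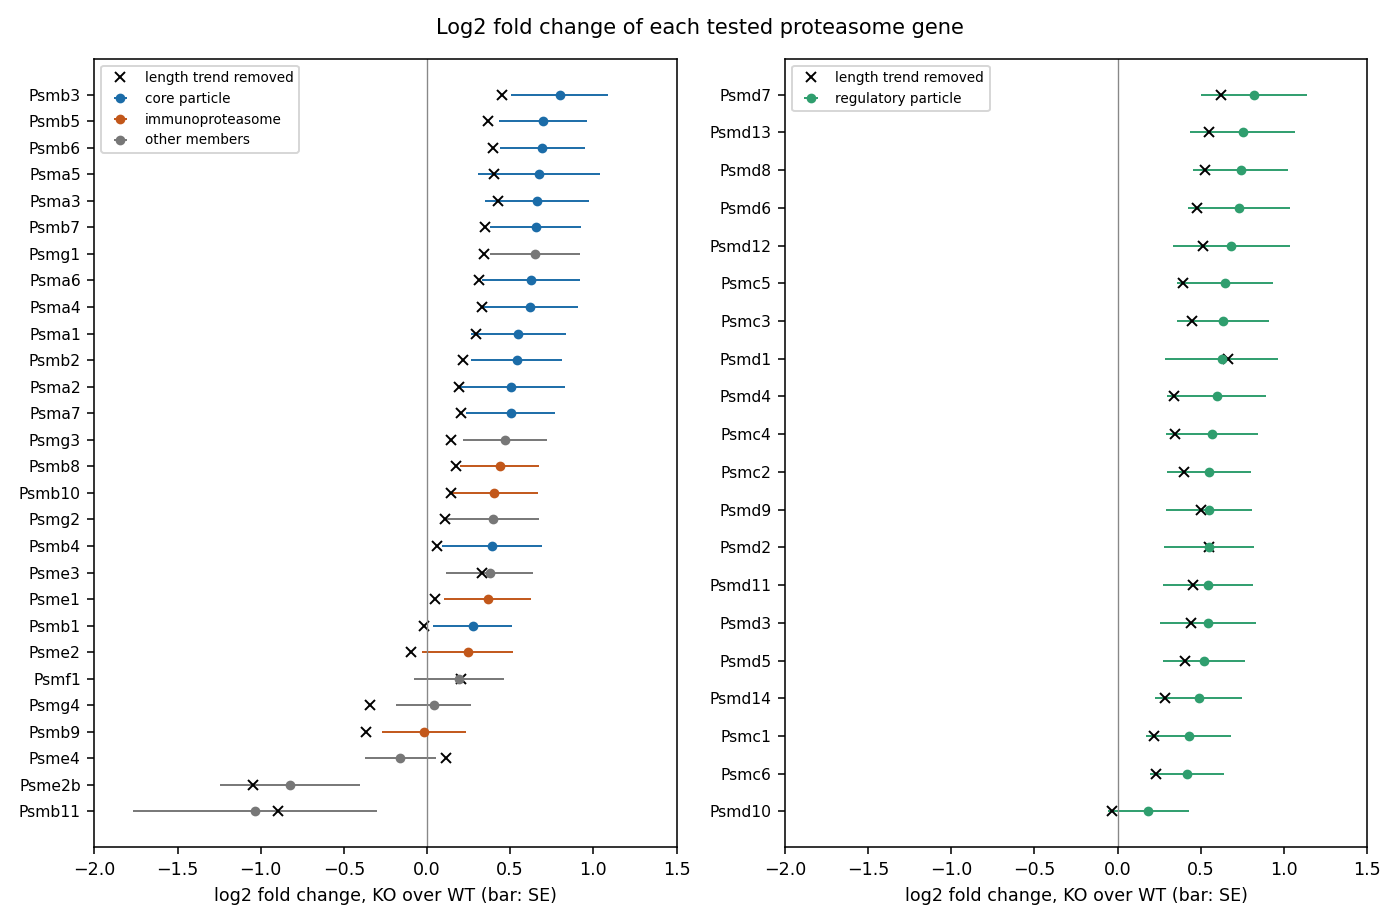
Points give the log2 fold change (KO over WT, x axis) of each of the 48 tested genes (y axis) with its standard error as a bar, coloured by class, and crosses give the value after a length trend was removed. All core and regulatory points lie to the right of 0, most crosses lie closer to 0, with those of Psmb1 and Psmd10 just left of it, and Psme2b and Psmb11 stand apart on the left.

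Among the alpha subunits, which form the outer rings and the gate, all 7 tested genes had a positive log2 fold change, from 0.50 (Psma7) to 0.67 (Psma5), and 0 passed the test. Psma3, whose product takes part in gating, stood at 161 and 234 CPM in KO against 158 and 92.4 CPM in WT libraries. Psma5 stood at 99.4 and 161 CPM in KO against 107.5 and 55.5 CPM in WT libraries, so its groups overlapped. The groups did not overlap for Psma3, Psma4, Psma6 and Psma7. In all 4 the gap between KO replicate 9 and WT replicate 1 was small, as with Psma6 at 112.7 against 111.2 CPM. Both KO libraries lay above both WT libraries for 25.4% of all genes. With the length trend removed they did so for 0 of the 7 alpha genes, against 20.8% of all genes. Summed over all 8 genes the alpha ring reached 1019 and 1512 CPM in KO against 1034 and 654 CPM in WT libraries.

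The constitutive beta subunits held the largest difference of the core. Psmb3, a structural beta subunit (gene 26446, GRCm38.p6 chr11:97703434-97713500), stood at 184 and 246 CPM in KO against 153 and 94.5 CPM in WT libraries. Both KO libraries were above both WT libraries, by 0.80 on the log2 scale (SE 0.29; edgeR adjusted p 0.412). Psmb1 (0.27, SE 0.24), Psmb2 (0.54, SE 0.27) and Psmb4 (0.39, SE 0.30), the other structural subunits, had smaller log2 fold changes. Psmb1 stood at 184 and 240 CPM in KO against 193 and 157 CPM in WT libraries, with overlapping groups. With the length trend removed its log2 fold change was -0.02.

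All 3 constitutive catalytic subunits were higher in both KO libraries than in either WT library, as were 25.4% of all genes. Their adjusted p did not pass. Psmb5, the chymotrypsin-like site (gene 19173, chr14:54614120-54617995), stood at 80.6 and 119.7 CPM in KO against 69.6 and 54.1 CPM in WT libraries, which is 0.70 on the log2 scale (SE 0.26; edgeR adjusted p 0.413). Psmb6, the caspase-like site (gene 19175, chr11:70525324-70527858), stood at 99.2 and 139 CPM in KO against 83.8 and 63.4 CPM in WT libraries, which is 0.69 on the log2 scale (SE 0.26; edgeR adjusted p 0.412). Psmb7, the trypsin-like site (gene 19177, chr2:38588046-38643952), stood at 138 and 186 CPM in KO against 124 and 82.5 CPM in WT libraries, which is 0.65 on the log2 scale (SE 0.27; edgeR adjusted p 0.416). Their log2 fold changes thus differed from one another by far less than 1 SE. With the length trend removed they were smaller, at 0.37 for Psmb5, 0.40 for Psmb6 and 0.35 for Psmb7.

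Their inducible counterparts had smaller estimates, and none passed the test. Psmb8, which takes the place of Psmb5 (gene 16913, chr17:34198195-34201454), stood at 274 and 391 CPM in KO against 248 and 243 CPM in WT libraries, a log2 fold change of 0.44 (SE 0.24). Psmb9, which takes the place of Psmb6 (gene 16912, chr17:34182030-34187330), stood at 111 and 168 CPM in KO against 142 and 141 CPM in WT libraries, a log2 fold change of -0.02 (SE 0.25). For Psmb9 the KO libraries thus lay on either side of both WT libraries, and with the length trend removed its log2 fold change was -0.37. Psmb10, which takes the place of Psmb7 (gene 19171, chr8:105935728-105938392), stood at 59.9 and 93.5 CPM in KO against 62.4 and 53.8 CPM in WT libraries, a log2 fold change of 0.40 (SE 0.26). The edgeR adjusted p was 0.455 for Psmb8, 0.978 for Psmb9 and 0.507 for Psmb10.

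Levels of different genes were compared on the deposited expression value, taken as FPKM, which is scaled to gene length. Psmb8 stood at 226 and 306 FPKM in KO against 205 and 212 FPKM in WT libraries, and was above Psmb5 (94.4 and 133 FPKM in KO, 81.8 and 67.1 FPKM in WT) in each library. Psmb9 was above Psmb6 in each library, at 136 and 197 FPKM in KO against 175 and 183 FPKM in WT libraries for Psmb9. The third pair ran the other way, with Psmb10 at 46.8 and 69.4 FPKM in KO and 48.9 and 44.3 FPKM in WT libraries, below Psmb7 in all 4. Psmb10 was the lowest of the 17 core and inducible subunits in each library. Psmb3 was the highest in both KO libraries and in WT replicate 1, and Psmb8 was the highest in WT replicate 6. The highest level was between 4.42 and 5.54 times the lowest within a library.

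**Figure D3:**
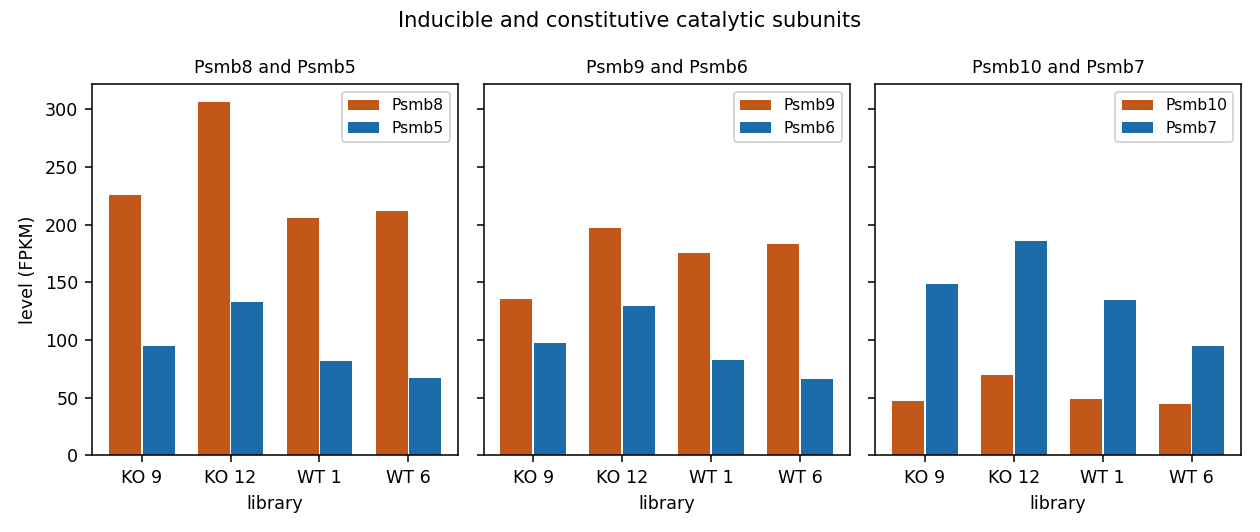
Bars give the FPKM (y axis, from 0) of each inducible subunit (orange) and the constitutive subunit it replaces (blue) in KO replicates 9 and 12 and WT replicates 1 and 6 (x axis). Psmb8 and Psmb9 exceed Psmb5 and Psmb6 in each library and Psmb10 is below Psmb7, and the blue bars vary more than the orange ones between the WT libraries.

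Set against its constitutive partner within the same library, a ratio that no scaling of the library alters, Psmb9 was lower in both KO libraries than in either WT library. The ratio of Psmb9 to Psmb6 was 1.40 and 1.52 in KO against 2.13 and 2.79 in WT libraries, with no overlap. On the log2 scale it averaged 0.54 ± 0.09 in KO and 1.29 ± 0.28 in WT libraries (SD, n = 2 each), a difference of -0.74. The ratio of Psmb8 to Psmb5 was 2.39 and 2.30 in KO against 2.51 and 3.16 in WT libraries, a log2 difference of -0.26. The KO values were below both WT values for Psmb8 too, but only WT replicate 6 stood well apart. For Psmb10 over Psmb7 the groups overlapped, at 0.314 and 0.373 in KO against 0.363 and 0.467 in WT libraries (log2 difference -0.26). Taken from counts in place of FPKM, that ratio just failed to overlap, at 0.433 and 0.503 in KO against 0.505 and 0.652 in WT libraries. The 3 inducible subunits together made up 54.5% and 56.1% of the FPKM of the 6 catalytic genes in KO against 59.0% and 65.9% in WT libraries. The exact two-sided permutation p was 0.333 for the first 2 pairs and the share, the smallest that 2 against 2 libraries can give, and 0.667 for Psmb10 over Psmb7 (exact permutation), so none of these differences could pass 0.05. With any single library left out, the log2 difference for Psmb9 over Psmb6 ran from -0.94 to -0.55, and that for Psmb8 over Psmb5 from -0.43 to -0.10.

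**Figure D4:**
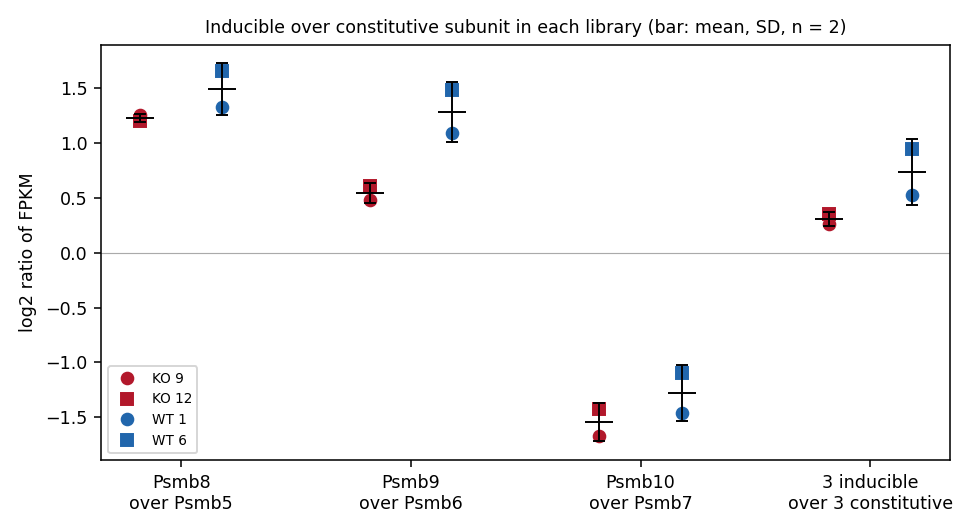
Points give the log2 ratio of FPKM (y axis) of each inducible subunit over its constitutive partner, and of the sums over all 3 (x axis), in KO (red) and WT (blue) libraries, with circles for KO 9 and WT 1, squares for KO 12 and WT 6, and black bars for the mean and SD of 2 libraries. The KO points are lower than the WT points except for Psmb10 over Psmb7, where they overlap, and the gap is widest for Psmb9 over Psmb6.

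The PA28 genes, like the inducible subunits, had log2 fold changes below the core median, and none passed the test. Psme1 (gene 19186, chr14:55578494-55581527) stood at 263 and 404 CPM in KO against 278 and 240 CPM in WT libraries, a log2 fold change of 0.36 (SE 0.26, edgeR adjusted p 0.534). Psme2 (gene 19188, chr14:55587440-55591101) stood at 176 and 288 CPM in KO against 205 and 187 CPM in WT libraries, a log2 fold change of 0.24 (SE 0.27, edgeR adjusted p 0.691). In both genes KO replicate 12 was the highest library and KO replicate 9 was below WT replicate 1. The 5 immunoproteasome genes summed to 883 and 1345 CPM in KO against 936 and 864 CPM in WT libraries. Their median log2 fold change was 0.36, against 0.62 in the core particle and 0.56 in the regulatory particle, and it was 0.02 without KO replicate 12 and 0.05 with the length trend removed. Both KO libraries were above both WT libraries for 1 of the 5, Psmb8, against 25.4% of all genes. Whether the classes differ in their response to the genotype was not tested.

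In the base of the regulatory particle the 6 ATPases that unfold the substrate, Psmc1 to Psmc6, had log2 fold changes from 0.42 (Psmc6) to 0.65 (Psmc5), none called. Each of the 6 was higher in both KO libraries than in either WT library, as were 25.4% of all genes. Psmc5 stood at 128 and 176 CPM in KO against 119 and 75.2 CPM in WT libraries, and Psmc1 at 170 and 223 CPM in KO against 169 and 123 CPM in WT libraries. For Psmc1 the lower KO and the higher WT library were thus about level. The base scaffold genes were Psmd2, at 278 and 369 CPM in KO against 265 and 177 CPM in WT libraries, and Psmd1, at 202 and 286 CPM in KO against 208 and 108 CPM in WT libraries. The groups overlapped for Psmd1. With the length trend removed both KO libraries lay above both WT libraries for 4 of the 8 base genes, against 20.8% of all genes.

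The lid, which removes ubiquitin before entry, had the highest median of the subgroups of more than 1 gene, 0.71 over its 8 genes. Psmd7, the partner of the deubiquitinase (gene 17463, chr8:107580380-107588482), had the highest estimate of all 48 genes. It stood at 145 and 228 CPM in KO against 131 and 80.6 CPM in WT libraries, which is 0.82 on the log2 scale (SE 0.32; edgeR adjusted p 0.413). Psmd14, the deubiquitinase itself, stood at 113 and 158 CPM in KO against 111 and 82.0 CPM in WT libraries (log2 0.49, SE 0.26). Both genes of this pair were higher in both KO libraries than in either WT library, as were 25.4% of all genes.

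Further lid scaffolds were among the genes at an unadjusted p under 0.05. Psmd13 stood at 114 and 170 CPM in KO against 106 and 62.5 CPM in WT libraries (log2 0.75, SE 0.32, edgeR adjusted p 0.416), and Psmd8 at 224 and 347 CPM in KO against 199 and 143 CPM in WT libraries (log2 0.74, SE 0.29, edgeR adjusted p 0.413). Psmd6 stood at 79.2 and 119 CPM in KO against 73.9 and 45.7 CPM in WT libraries (log2 0.73, SE 0.31, edgeR adjusted p 0.416). In all 3 the KO libraries were above the WT libraries, as for 25.4% of all genes. In Psmd12 (94.6 and 158 CPM in KO against 100.7 and 56.5 CPM in WT) they overlapped. With the length trend removed both KO libraries lay above both WT libraries for 4 of the 8 lid genes, against 20.8% of all genes. Psmd3 (0.54) and Psmd11 (0.55) completed the lid. Summed over the lid, KO libraries held 1148 and 1687 CPM against 1093 and 707 CPM in WT libraries, a ratio of 1.58 with an exact permutation p of 0.333.

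The remaining regulatory genes were the ubiquitin receptor Psmd4 and the base assembly chaperones Psmd5, Psmd9 and Psmd10. Psmd4 stood at 123 and 216 CPM in KO against 120 and 104 CPM in WT libraries (log2 0.59, SE 0.29), so that KO replicate 12 alone was well above the rest. Psmd5 (0.52) and Psmd9 (0.55) had similar log2 fold changes. Psmd10, which encodes gankyrin, had the smallest of the 20 (0.18, SE 0.24), at 17.9 and 22.9 CPM in KO against 18.6 and 17.3 CPM in WT libraries.

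**Figure D5:**
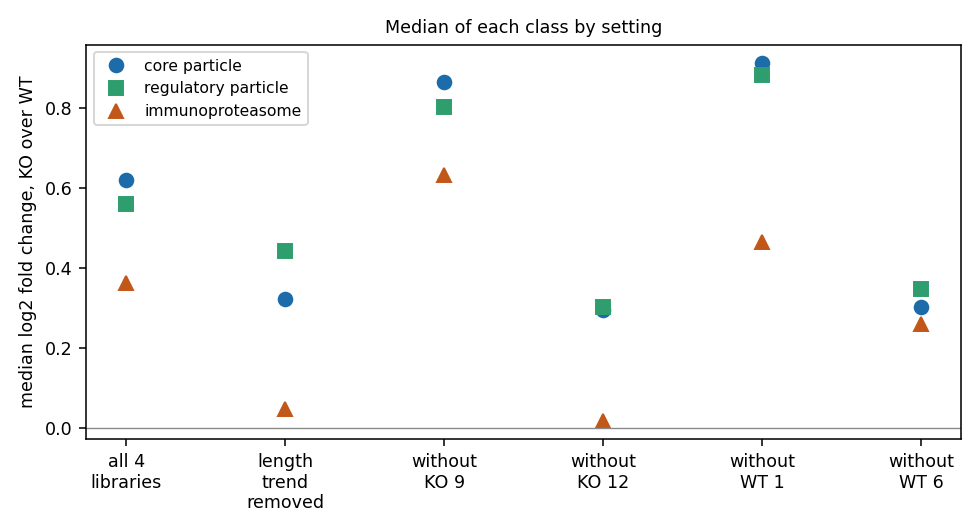
Points give the median log2 fold change (KO over WT, y axis) of the 14 core, 20 regulatory and 5 immunoproteasome genes with all 4 libraries, with the length trend removed and with each library left out (x axis). The core and regulatory medians stay between 0.30 and 0.91 in these settings, and the immunoproteasome median is lower than both in each, close to 0 without KO 12 and with the length trend removed.

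The alternative activators and the inhibitor had estimates nearer to 0 than the core median, and none passed the test. Psme3, the nuclear PA28 gamma, stood at 320 and 324 CPM in KO against 305 and 192 CPM in WT libraries (log2 0.38, SE 0.26), so that only WT replicate 6 stood apart. Psme4, which encodes PA200 (gene 103554, chr11:30771775-30881150), stood at 109 and 97.3 CPM in KO against 125 and 106 CPM in WT libraries, a log2 fold change of -0.16 (SE 0.21). It was the longest of the genes, and with the length trend removed its value was 0.11. Psmf1, the inhibitor PI31, stood at 49.0 and 70.2 CPM in KO against 60.8 and 43.5 CPM in WT libraries (0.19, SE 0.27), with overlapping groups.

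Of the assembly chaperones, which pair alpha subunits into rings, Psmg1 was at an unadjusted p under 0.05. It stood at 29.9 and 44.9 CPM in KO against 26.9 and 20.7 CPM in WT libraries, a log2 fold change of 0.65 (SE 0.27, edgeR adjusted p 0.416). Its partner Psmg2 stood at 28.9 and 39.1 CPM in KO against 31.3 and 20.5 CPM in WT libraries (0.39, SE 0.28), with overlapping groups. In the other pair Psmg3 had a log2 fold change of 0.47 (SE 0.25), whereas Psmg4 was nearly level, at 18.4 and 19.7 CPM in KO against 18.3 and 18.8 CPM in WT libraries (0.04, SE 0.23).

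The 2 genes with the most negative estimates were little expressed, and their counts were not whole, so reads were shared with other genes. Psme2b, a close copy of Psme2, stood at 9.11 and 4.08 CPM in KO against 9.87 and 13.4 CPM in WT libraries (log2 -0.82, SE 0.42, edgeR adjusted p 0.439), and its log2 fold change was -0.35 without KO replicate 12 and -1.52 without KO replicate 9. Its value is uncertain, since a split of reads between the copies can go either way. Psmb11, the thymus-specific catalytic subunit, stood at 3.94 and 1.60 CPM in KO against 2.19 and 9.15 CPM in WT libraries (log2 -1.03, SE 0.74, edgeR adjusted p 0.534), and was 0.33 without WT replicate 6. Counts that were not whole in at least 1 library were also found for Psma3, Psma4, Psmd9, Psmd11, Psme2 and Psmf1.

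A further list of 12 genes, all tested, held proteins that associate with the proteasome, and also Psmc3ip (log2 0.022), a meiotic recombination factor with a Psm name. None was called, 9 of the 12 had a positive log2 fold change (median 0.27), and 2 were higher and 1 lower at the unadjusted limit of 0.05. Over all tested genes 49.8% were positive, and 6.23% were higher and 5.73% lower at that limit. Pomp, the maturation factor of the core particle, stood at 109 and 188 CPM in KO against 104 and 67.1 CPM in WT libraries (log2 0.80, SE 0.33), with KO replicate 12 the highest and WT replicate 6 the lowest library, as for the core genes. Usp14, a deubiquitinase bound to the base, stood at 72.3 and 93.4 CPM in KO against 60.02 and 41.7 CPM in WT libraries (0.70, SE 0.26). The lower gene was Ublcp1, a phosphatase that acts on nuclear proteasomes, at 22.5 and 25.7 CPM in KO against 35.8 and 40.1 CPM in WT libraries (-0.65, SE 0.21, edgeR adjusted p 0.404).

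The regulators of proteasome genes and the shuttle factors were mixed in direction. Of 14 tested, 0 were called, 9 had a positive log2 fold change (median 0.12), and 0 were higher and 1 lower at the unadjusted limit. The shares over all genes were 49.8% positive, 6.23% higher and 5.73% lower. Nfe2l1 stood at 229 and 131 CPM in KO against 145 and 206 CPM in WT libraries (0.04, SE 0.31). Its lowest library was KO replicate 12, in which most proteasome genes were highest, and its highest was KO replicate 9. Whether Nfe2l1 has a part in the proteasome levels was not tested. Ddi2, the protease that is known to release the Nfe2l1 protein from its membrane-bound form, was the lower gene, at 42.4 and 32.0 CPM in KO against 63.4 and 61.9 CPM in WT libraries (-0.75, SE 0.23, edgeR adjusted p 0.386). Ubqln4, a shuttle that carries ubiquitin-tagged proteins, stood at 105.3 and 120.9 CPM in KO against 89.9 and 71.3 CPM in WT libraries (0.49, SE 0.22). Among the 5 ubiquitin and E1 genes read, 0 passed at either limit, 4 had a positive log2 fold change (median 0.15), and Uba1 and Rps27a had the smallest p. Uba1, the main ubiquitin-activating enzyme, stood at 756 and 805 CPM in KO against 705 and 469 CPM in WT libraries (0.41, SE 0.25). Rps27a, which encodes ubiquitin fused to a ribosomal protein, stood at 774 and 958 CPM in KO against 724 and 646 CPM in WT libraries (0.34, SE 0.21). With the length trend removed the log2 fold change was -0.0097 for Rps27a and 0.54 for Uba1.

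Genes of MHC class I antigen processing, read together with the transcription regulators Nlrc5 and Irf1, had a negative median of -0.26 over the 12 read, all tested. Of these 3 were positive, 0 were called, and 0 were higher and 1 lower at the unadjusted limit. Among all genes 49.8% were positive, 6.23% higher and 5.73% lower. The lower gene was Nlrc5, the transactivator of MHC class I genes, which stood at 169 and 156 CPM in KO against 261 and 334 CPM in WT libraries (-0.88, SE 0.22, edgeR adjusted p 0.346). Its KO libraries were close to each other and below both WT libraries. Irf1, a transcription factor induced by interferon, had the next smallest p and stood at 204 and 237 CPM in KO against 285 and 342 CPM in WT libraries (-0.51, SE 0.22, edgeR adjusted p 0.417). Tap1, the neighbour of Psmb9, stood at 366 and 436 CPM in KO against 445 and 609 CPM in WT libraries (-0.39, SE 0.24). The groups thus did not overlap for Tap1 although they did for Psmb9. Both KO libraries lay below both WT libraries for 24.3% of all genes. Tap1 was singled out after its values were seen.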

How the data were processed

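Total RNA (TRIzol) of 2 Setd2 KO and 2 wild type samples was sequenced on the Illumina HiSeq platform, per the labels' protocols. Bowtie2 and RSEM, with the builds GRCm38.p6 and mm10, are named per the submitters' processing notes; their versions were not given in the sources used here. Expected counts per gene stand in the deposited table, share ambiguous reads and need not be whole. The table also gives a value per library taken as FPKM made by the authors, because the header states no unit and implied gene lengths were 0.996 times the annotated ones in the median of 562 genes with 1 transcript.

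Counts were rounded, filtered with filterByExpr (minimum count 10) and scaled by TMM (factors 0.998 and 0.949 in KO replicates 9 and 12, 1.00 and 1.06 in WT replicates 1 and 6). KO was compared with WT in edgeR 4.0.16 (R 4.3.3, quasi-likelihood F test, robust, two-sided, Benjamini-Hochberg over 12816 genes, threshold 0.05), with SE from the F statistic, and checked on simulated data. Alternatives were DESeq2 1.42.0, limma-voom (limma 3.58.1), other scalings and filters, a loess length trend (span 0.5) and each library left out. Single values per library were tested by exact permutation. Coordinates and promoters are from RefSeq GRCm38.p6. Members and lists were chosen with earlier results of these data known. Values per library were given for the catalytic, PA28, PA200 and inhibitor genes, the 3 highest and lowest estimates and genes at an unadjusted p under 0.05, and in the other lists for the 2 genes of smallest p, Nfe2l1 and Pomp; other genes, and the 5 motifs, were chosen after values were seen. A few genes of the marker and pathway lists are not reported here and were left out of list counts and sums.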

Additional observations from a re-analysis of the deposited data

How the results depend on the processing

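With 2 libraries a group, precision was limited by the spread between libraries of one genotype; depth bears on the low genes Psma8, Psmb11 and Psme2b. No paired analysis was possible because the groups share no replicate numbers. Proteasome genes called over all genes numbered 0 in each of the 12 alternatives, and 39 of the 48 log2 fold changes kept their sign in all of them. Genes called over all were 48 higher and 33 lower without a filter, 88 and 97 in DESeq2, and 1 lower with the length trend removed; with a library left out they ran from 0 to 113 higher and from 0 to 81 lower. Proteasome genes higher at an unadjusted p under 0.05 were 5 with library size alone, 22 without a filter, 15 in DESeq2 and 0 with the length trend removed, and from 0 to 29 with a library left out; lower ones were 1 without a filter and from 0 to 2 with a library left out. Genes with KO above WT libraries were 18 with the length trend removed (37.5%, against 20.8% of all genes). Those below were 2 with upper-quartile factors, 2 with library size alone and 3 with the length trend removed. For those below, the share over all genes was not worked out in these settings. Nor was it worked out for the counts at an unadjusted p with library size alone or without a filter. The same holds for the lower genes at that limit with a library left out. Without a filter more genes were called over all as well, so the 22 there does not single out the proteasome genes. The immunoproteasome median was 0.049 with the length trend removed and from 0.018 to 0.63 with a library left out, and the log2 ratio of its summed CPM from -0.028 (without KO replicate 12) to 0.58. With the length trend removed the log2 fold change turned for Psmb1 (-0.018), Psme2 (-0.094), Psme4 (0.11), Psmg4 (-0.34; -0.040 with library size alone) and Psmd10 (-0.032). With a library left out, ranges that crossed 0 were -0.067 to 0.72 for Psmb4, -0.35 to 0.24 for Psmb9, -0.16 to 0.55 for Psme2, -1.83 to 0.33 for Psmb11, -0.094 to 0.46 for Psmf1, -0.013 to 0.079 for Psmg4 and -0.0045 to 0.34 for Psmd10. The cause was not tested.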
